A study of Mus musculus with 18 samples.

Results

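The morning-phase activators of the circadian clock and the Cry genes were followed in mouse liver: Arntl (also called Bmal1), Clock, Npas2, Cry1, Cry2, Nfil3 and Rora. They were taken by name, as every probe set that the platform annotation pairs with exactly 1 of these 7 symbols, which gave 20 probe sets, and all 7 genes were among the 13221 genes tested. For each gene the probe set with the highest mean over all arrays is the main one. Liver RNA of wild-type CD1 mice was measured on 18 Affymetrix arrays, 3 in each of 6 groups. The prevention model began with 1 week of vehicle or of CMPF, a furan fatty acid metabolite found in blood, at 6 mg/kg per day, followed by 4 weeks on a diet that drew 60% of its calories from fat (HFD). In the reversal model, mice ate HFD for 6 weeks and were then injected with vehicle or CMPF, at the same daily dose, for 2 weeks. Each model also had a chow group labelled as control. Whether the chow mice were injected, the sex and age of the mice and the hour at which livers were collected are not given in the sources used here.

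The liver clock is a feedback loop of transcription. ARNTL pairs with CLOCK, or with its paralogue NPAS2, and the pair binds E-box sequences and switches on the Per and Cry genes, whose proteins then hold the pair back. A second loop acts through ROR elements, which RORA and its relatives activate and the REV-ERB receptors (Nr1d1, Nr1d2) repress, and which time the transcription of Arntl. NFIL3 represses D-box genes, which DBP, TEF and HLF activate. In mouse liver, Arntl and Npas2 transcripts peak around dawn, and Dbp and Per3 transcripts peak late in the day.

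The stretches before the transcription start show which of these elements lie near each gene. RefSeq promoter windows (GRCm38.p6) were matched for all 7 genes, with 10 start sites in all, and the 250 bases before each start were searched on both strands. The motifs were the E-box CACGTG, found in 6.02% of 32851 windows of the same length, and its variant CACGTT, found in 3.85%. The ROR core AGGTCA was found in 14% of windows, its longer form TAGGTCA, which contains the core, in 2.23%, and the D-box (TTATGTAA or TTACGTAA) in 0.931%. The genes shown are those that the results turn on, with matched motifs in capitals; a match is only a match of letters. The Cry1 window (chr10:85185055-85185304, minus strand) held an E-box 60 bases and the variant 79 bases before the start, and the Cry2 window (chr2:92434070-92434319, minus strand) held the variant 166 bases before it. The first Arntl window (chr7:113207215-113207464, plus strand), the Npas2 window (chr1:39194022-39194271, plus strand) and the Rora window (chr9:68653536-68653785, plus strand) held none of these letters. Among the genes not shown, 1 of 3 Clock windows held the ROR core 119 bases before the start, and Nfil3 held its longer form 12 bases before it.
Cry1: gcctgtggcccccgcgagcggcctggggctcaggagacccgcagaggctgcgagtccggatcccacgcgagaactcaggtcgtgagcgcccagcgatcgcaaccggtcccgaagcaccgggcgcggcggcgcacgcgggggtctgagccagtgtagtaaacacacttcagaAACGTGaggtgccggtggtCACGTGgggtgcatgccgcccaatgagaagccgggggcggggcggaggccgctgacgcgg
Cry2: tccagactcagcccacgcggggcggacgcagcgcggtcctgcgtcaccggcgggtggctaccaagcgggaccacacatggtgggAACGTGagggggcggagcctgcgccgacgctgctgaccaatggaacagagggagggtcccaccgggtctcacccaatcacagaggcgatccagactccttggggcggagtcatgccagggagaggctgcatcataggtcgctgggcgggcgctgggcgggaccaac
Arntl: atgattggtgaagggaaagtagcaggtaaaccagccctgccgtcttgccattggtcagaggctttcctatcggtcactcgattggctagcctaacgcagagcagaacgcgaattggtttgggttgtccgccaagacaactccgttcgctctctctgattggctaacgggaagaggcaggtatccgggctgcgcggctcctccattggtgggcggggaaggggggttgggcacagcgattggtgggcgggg
Npas2: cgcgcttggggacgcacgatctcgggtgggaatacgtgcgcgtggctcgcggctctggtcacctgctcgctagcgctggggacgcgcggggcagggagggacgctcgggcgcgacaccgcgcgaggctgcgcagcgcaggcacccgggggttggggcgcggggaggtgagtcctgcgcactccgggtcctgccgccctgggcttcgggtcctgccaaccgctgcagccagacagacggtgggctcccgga
Rora: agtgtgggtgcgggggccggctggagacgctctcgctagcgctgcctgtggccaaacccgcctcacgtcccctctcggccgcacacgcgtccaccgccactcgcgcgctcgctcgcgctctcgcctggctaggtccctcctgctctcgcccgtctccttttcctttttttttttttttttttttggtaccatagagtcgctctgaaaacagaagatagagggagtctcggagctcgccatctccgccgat

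The ROR elements known for Arntl lie around its start. The letters AGTAGGTNA were searched on both strands from 250 bases before to 50 after each start, a window of 300 bases, and were found in 0.591% of the 32851 windows. Around the second listed Arntl start they occurred 2 times, beginning 8 bases before the start (chr7:113207495-113207519) and at base 29 after it (chr7:113207531-113207555). The copy that begins before the start reaches across it, and the same copy begins at base 39 after the first listed start. Nfil3 held them once, on the opposite strand, beginning 12 bases before its start (chr13:52981035-52981059). The elements are shown in capitals with 8 bases on each side, and the Arntl labels say where each begins, by the second start.
Arntl, before the start: ggtcggaaAGTAGGTTAgtggtgcg
Arntl, after the start: aggcagaaAGTAGGTCAgggacgga
Nfil3: ctcggaacTGACCTACTaacacaca

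Values are log2 signals, so that a difference of 1 is a 2-fold change, and a gene passed where its Benjamini-Hochberg adjusted p over all genes, from limma, was under 0.05. Array means fell at 2 levels, 1 for each model, so levels are set side by side only within a model. CMPF arrays 2 and 3 of the prevention model hardly differed: the SD of their difference over bright genes was 0.102, against at least 0.277 in any other pair of arrays. They were averaged, and that group has n = 2. Reversal chow 2 stood apart, with a median correlation of 0.948 with the other arrays of its model. The log2 signal of Gapdh and beta-actin control probes at the 3' end minus that at the 5' end, an index that grows as RNA breaks down, ran from 0.968 to 1.98 in prevention chow and from 2.66 to 3.19 in prevention HFD, and the ranges of the groups overlapped in the reversal model. Of 34 markers of 6 liver cell types, 27 were tested. In prevention HFD against chow, 1 of them passed (Stab2, an endothelial scavenger receptor, 0.52 ± 0.142, adjusted p = 0.049), and 0 passed in the other comparisons between groups (limma). The HFD effect differed between the models for Stab2 (-0.91 ± 0.201) and for Krt19, a bile duct keratin (-0.76 ± 0.168; adjusted p = 0.0244 for both). Both calls were lost without prevention chow 1 and with the index as a covariate, where 0 genes passed for this difference. In bulk liver, fewer cells of a type and less RNA per cell cannot be told apart.

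Arntl was lower on HFD than on chow in the reversal model but not in the prevention model. Its main probe set (1425099_a_at; the gene lies on chromosome 7 from 113178471 to 113314126) read 5.75, 6.16 and 6.00 in reversal chow, 5.39, 5.08 and 5.00 in reversal HFD and 5.25, 5.14 and 5.18 in reversal HFD with CMPF. All 3 chow arrays lay above all 6 arrays of the HFD-fed groups. Arntl fell by 0.81 ± 0.149 (log2 fold change ± SE, n = 3 against 3; 1.76-fold; adjusted p = 0.0153) with HFD. Prevention arrays read 4.90, 4.71 and 4.73 in chow, 5.11, 4.98 and 5.50 in HFD and 5.23, 4.93 and 5.12 with CMPF. There the HFD arrays lay above the chow arrays, but the value of 0.42 ± 0.149 did not pass (adjusted p = 0.107). The HFD effect differed between the models by -1.23 ± 0.211 (adjusted p = 0.0173). That test concerns the effects and leaves aside the level of each model. It was lost with the 3' to 5' index as a covariate (-1.24, adjusted p = 0.152) and without prevention chow 1 (adjusted p = 0.0506) or chow 3 (0.0515), and the markers Stab2 and Krt19 differed between the models in the same direction; their part was not tested.

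The reversal call of Arntl rested on few arrays. It was lost without chow 2 (-0.72, adjusted p = 0.0537), without HFD 3 (-0.73, adjusted p = 0.0512) and when the reversal model was fitted alone (adjusted p = 0.0619). The other Arntl probe set, 1457740_at, read 4.95, 5.19 and 5.04 in reversal chow and 4.69, 4.70 and 4.83 in reversal HFD. It too was lower on every HFD array than on every chow array, by a mean of -0.32, and it did not pass when all probe sets were tested. In prevention its HFD value was 0.00. The mean log2 signal of the 6 Kupffer cell markers also separated reversal chow (6.61 to 7.13) from reversal HFD (7.24 to 7.93). It ran from 7.06 to 7.69 with CMPF. All 6 markers were higher on HFD than on chow, and 0 passed in limma. The means of the other cell types overlapped between reversal chow and HFD. The part of cell types in the fall of Arntl was not tested.

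**Figure D1:**
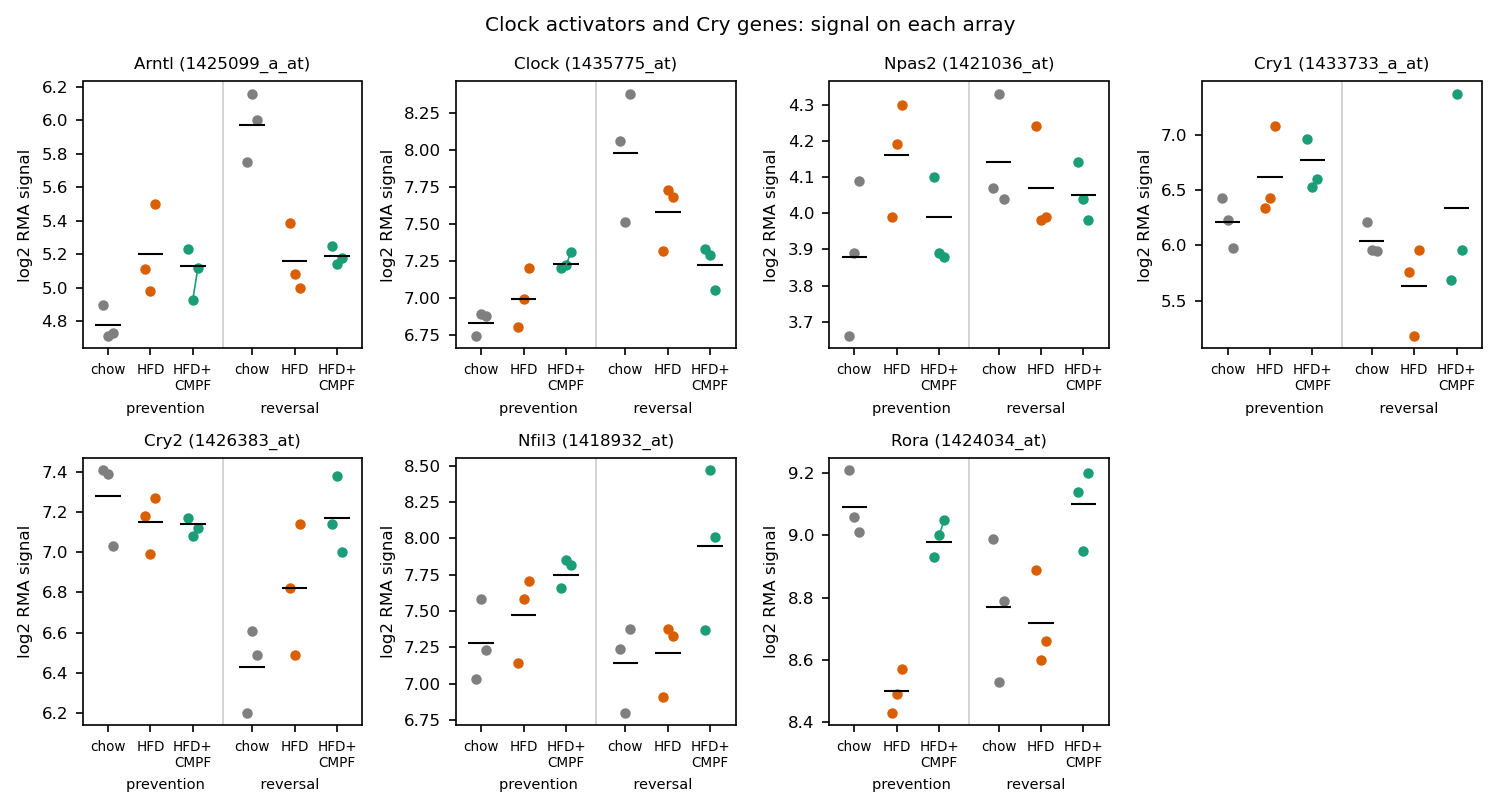
Log2 RMA signal of the main probe set of each of the 7 genes on each of the 18 arrays (points), by group, with group means (bars); the line joins the 2 prevention CMPF arrays that were averaged. Within the reversal model Arntl is highest on the 3 chow arrays (5.75 to 6.16), and within the prevention model Rora is lowest on the 3 HFD arrays (8.43 to 8.57).

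CMPF did not move Arntl detectably. On HFD the difference from vehicle was -0.07 in the prevention model (95% interval -0.42 to 0.29) and 0.03 in the reversal model (-0.29 to 0.35). In reversal mice given CMPF it was thus still lower than in chow mice, by -0.78 ± 0.149 (adjusted p = 0.0171). This comparison shares the chow arrays with that of HFD, so both rest on the same 3 arrays. The call was lost without reversal chow 2 (adjusted p = 0.0572), CMPF 1 (0.0501) or CMPF 3 (0.065), and when the reversal model was fitted alone (0.0722).

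Clock, the partner of ARNTL and a histone acetyltransferase (chromosome 5, 76209868 to 76305603), had 4 probe sets. The main one, 1435775_at, read 8.06, 7.51 and 8.38 in reversal chow, 7.32, 7.73 and 7.68 in HFD and 7.33, 7.29 and 7.05 with CMPF. The HFD arrays overlapped both other groups, and the 3 CMPF arrays lay below the 3 chow arrays. The HFD value was -0.41 ± 0.186 (adjusted p = 0.215), and that of CMPF on HFD against chow was -0.76 ± 0.186 (adjusted p = 0.052), just outside the threshold, and it passed in 7 of 26 alternatives. All 4 probe sets were lower on HFD than on chow in reversal, from -0.91 to -0.08, and lower again with CMPF against vehicle, from -0.45 to -0.16. None of these 8 differences passed in limma's test over all probe sets.

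In prevention the main Clock probe set read 6.74, 6.89 and 6.88 in chow, 6.80, 6.99 and 7.20 in HFD and 7.20, 7.22 and 7.31 with CMPF. Its HFD value was 0.16 ± 0.186 (adjusted p = 0.641) and its CMPF value 0.24 ± 0.208 (adjusted p = 0.837). The probe sets did not move alike, with HFD values from -0.08 to 1.02. One of them, 1439314_at, went the opposite way in the 2 models. It read 3.52, 4.30 and 3.52 in prevention chow and 4.75, 4.90 and 4.76 in prevention HFD, against 5.14, 5.96 and 5.31 in reversal chow and 4.18, 5.07 and 4.42 in reversal HFD. Its difference between models, -1.94 ± 0.415, passed over all probe sets (adjusted p = 0.0319), while that of the main probe set was -0.57 ± 0.263 (adjusted p = 0.159). The 1439314_at values of 3.52 in prevention chow lay near the floor, under 4.01, the mean signal below which probe sets were dropped. The mean 3' to 5' index also went opposite ways. It was 1.43 in prevention chow and 2.84 in prevention HFD, against 3.15 in reversal chow and 2.62 in reversal HFD. This probe set was not fitted with the index as a covariate. In the fit over genes, 0 passed for this difference with that covariate. The part of shorter RNA was not tested.

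Npas2, which can stand in for CLOCK (chromosome 1, 39193702 to 39363240), was dim. Its main probe set, 1421036_at, lay at the 40.7th percentile of mean signal, close to the 40% below which probe sets were dropped. It read 4.07, 4.33 and 4.04 in reversal chow and 4.24, 3.98 and 3.99 in reversal HFD, groups that overlapped (-0.07 ± 0.133, adjusted p = 0.767). The other probe set, 1421037_at, lay at the 20.8th percentile and entered only the fit without the filter. It read 3.96, 3.98 and 3.92 in reversal chow, 3.53, 3.51 and 3.39 in HFD and 3.28, 3.05 and 3.35 with CMPF. Its 3 groups did not overlap, with chow highest and CMPF lowest. It fell by 0.48 ± 0.0879 with HFD (adjusted p = 0.0293 over all probe sets) and was lower by -0.72 ± 0.0879 with CMPF on HFD than on chow (adjusted p = 0.00244). On the prevention arrays it ran from 2.7 to 2.99, and its HFD effect differed between the models by -0.62 ± 0.124 (adjusted p = 0.0291). This probe set too was not fitted with the 3' to 5' index as a covariate. The probe sets of Npas2 thus gave different answers, and which of them follows the transcript more closely was not tested.

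Rora, the nuclear receptor that activates through ROR elements, was the member that fell with HFD in the prevention model. The gene lies on chromosome 9 from 68653404 to 69388246. Its main probe set, 1424034_at, read 9.21, 9.06 and 9.01 in prevention chow, 8.43, 8.49 and 8.57 in HFD and 8.93, 9.0 and 9.05 with CMPF. All 3 HFD arrays lay below both other groups. Rora fell by 0.60 ± 0.125 with HFD (1.51-fold; adjusted p = 0.0217). With CMPF it was higher than with vehicle by 0.48 ± 0.139 (n = 2 against 3, adjusted p = 0.393), which did not pass, and differed from chow by -0.12 (95% interval -0.42 to 0.18). The comparisons of HFD and of CMPF share the same 3 vehicle arrays on HFD, so low values on these arrays enter both.

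In the reversal model Rora read 8.99, 8.53 and 8.79 in chow, 8.89, 8.60 and 8.66 in HFD and 9.14, 8.95 and 9.20 with CMPF. Chow and HFD overlapped (-0.05 ± 0.125, adjusted p = 0.844). Every CMPF array lay above every vehicle array on HFD, by a mean of 0.38 ± 0.125 (adjusted p = 0.68), which did not pass. The HFD effect differed between the models by 0.55 ± 0.176 (adjusted p = 0.0579), and the CMPF effect by -0.10 ± 0.187 (adjusted p = 0.929).

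Rora had 9 probe sets, of which 8 lay above the filter. They read 1 gene on the same arrays, so they are not separate evidence. In the prevention model 7 of the 9 were lower on HFD. Of these, 3 passed in the fit over all probe sets, where 2.64% of 45037 passed: the main one, 1455165_at (-0.53 ± 0.133, adjusted p = 0.0496) and 1436326_at (-0.75 ± 0.146, adjusted p = 0.0236). The last read 7.75, 7.56 and 7.66 in chow, 7.01, 6.63 and 7.07 in HFD and 7.57, 7.71 and 7.60 with CMPF, the same order of groups as the main probe set. The largest difference, at 1420583_a_at, had another shape: 7.63, 6.99 and 7.75 in chow, 5.72, 6.26 and 6.23 in HFD and 6.28, 6.31 and 6.29 with CMPF, so that CMPF arrays lay far nearer to HFD than to chow (-1.39 ± 0.366 for HFD, adjusted p = 0.0589). In the reversal model 7 of the 9 were also lower on HFD, with values from -0.40 to 0.79, and 0 passed. There 1436325_at read 8.79, 6.19 and 8.65 in chow, and the low value is that of chow 2, the array that stood apart. For CMPF against vehicle 7 of the 9 probe sets were higher in prevention (-0.24 to 0.71) and 8 of 9 in reversal (-0.06 to 0.41), and 0 passed in either model (limma over all probe sets).

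The 3' to 5' index differed between chow and HFD in the prevention model, as Rora did. In HFD with CMPF the index ran from 2.75 to 3.16. There the main Rora probe set read 8.93, 9.0 and 9.05, near chow, and 1420583_a_at read 6.28, 6.31 and 6.29, near HFD. With the index as a covariate Rora was at -0.41 (adjusted p = 0.231). The call was also lost with the mean of its probe sets (-0.42, adjusted p = 0.0718) and without chow 1 (adjusted p = 0.107), chow 3 (0.0835), HFD 1 (0.0823) or HFD 2 (0.0552). The mean log2 signal of the endothelial markers, 4 tested of 5, also differed between prevention chow and HFD. It ran from 7.17 to 7.65 in chow, from 7.89 to 8.12 in HFD and from 7.52 to 7.91 with CMPF. Of these 4, Stab2 passed, while Lyve1 (1.33), Clec4g (0.08) and Kdr (0.08) did not. Hepatocyte markers (13.3 to 13.5 in chow, 13.2 in HFD) and cholangiocyte markers (4.84 to 4.95 in chow, 4.98 to 5.07 in HFD) separated these groups too. The part of shorter RNA and of cell types in the fall of Rora was not tested beyond this.

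**Figure D2:**
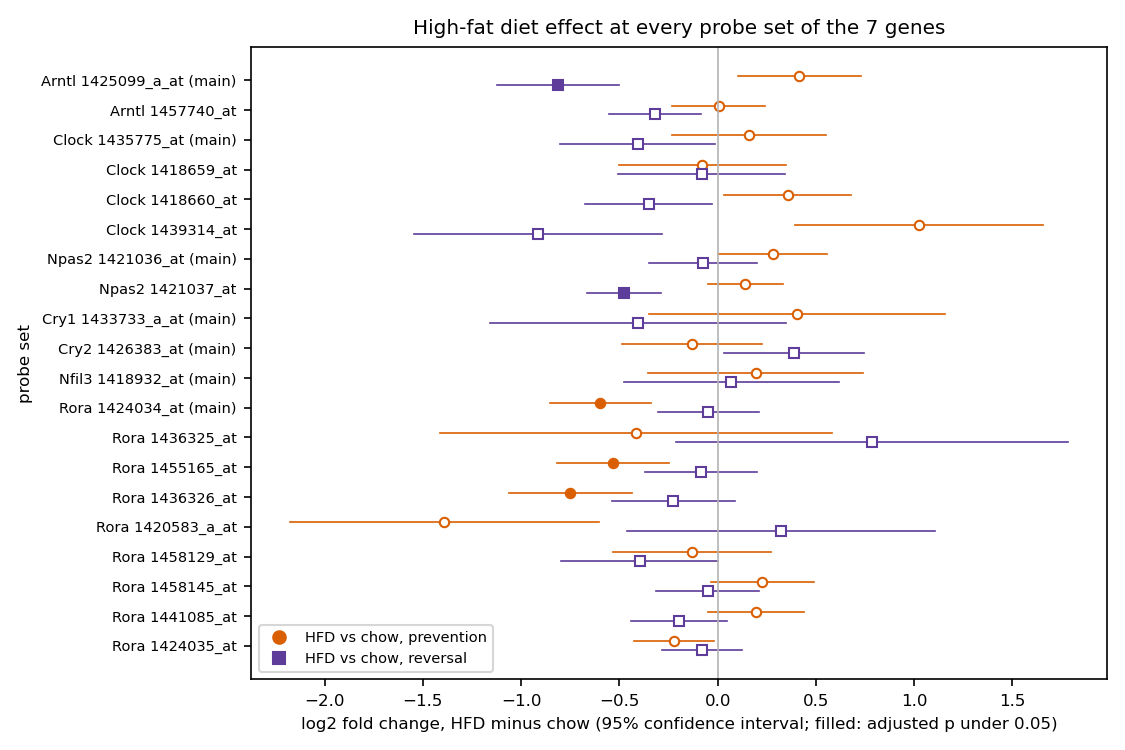
Log2 fold change of HFD against chow at each of the 20 probe sets of the 7 genes, with 95% confidence intervals, in the prevention model (circles) and the reversal model (squares); filled symbols passed over all probe sets. The Arntl, Clock and Npas2 probe sets and that of Cry1 lie left of 0 in reversal, and 7 of 9 Rora probe sets lie left of 0 in each model.

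The Cry genes encode the repressors that bind CLOCK and ARNTL. Cry2 (1426383_at; chromosome 2, 92403646 to 92434085) was lowest on reversal chow and highest with CMPF. It read 6.20, 6.61 and 6.49 in reversal chow, 6.82, 6.49 and 7.14 in HFD and 7.14, 7.38 and 7.0 with CMPF. The chow and HFD arrays overlapped, the HFD and CMPF arrays overlapped, and every CMPF array lay above every chow array. Cry2 rose by 0.74 ± 0.17 from chow to HFD with CMPF (1.67-fold; adjusted p = 0.0411). In limma's fit over all probe sets this rise did not pass (adjusted p = 0.0694). Each single step was smaller: 0.39 ± 0.17 for HFD (adjusted p = 0.198) and 0.35 ± 0.17 for CMPF (adjusted p = 1). The call was lost in 13 of 26 alternatives, with the value from 0.63 to 0.83 and the adjusted p from 0.0243 to 0.154; it was lost without any 1 of the reversal chow or CMPF arrays. In the prevention model Cry2 ran from 6.99 to 7.41 on all 9 arrays, with an HFD value of -0.13 and a CMPF value of -0.01.

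Cry1 (1433733_a_at; chromosome 10, 85131700 to 85185054) had the widest spread within a group among the 7 main probe sets, with an SD of 0.9 in reversal CMPF. It read 6.21, 5.96 and 5.95 in reversal chow, 5.76, 5.18 and 5.96 in HFD and 5.69, 7.37 and 5.96 with CMPF, where replicate 2 lay above all other arrays of its model. Its CMPF value of 0.71 ± 0.351 (adjusted p = 1) was 0.19 without that array, and the value against chow turned from 0.30 to -0.21. Prevention arrays of Cry1 read 6.43, 6.23 and 5.98 in chow, 6.34, 6.43 and 7.08 in HFD and 6.96, 6.53 and 6.60 with CMPF. The HFD value was 0.40 ± 0.351 (adjusted p = 0.514), within the spread between arrays.

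Nfil3, the D-box repressor (1418932_at; chromosome 13, 52967209 to 52982878), was highest with CMPF in both models without passing. In reversal it read 7.24, 6.80 and 7.38 in chow, 6.91, 7.38 and 7.33 in HFD and 7.37, 8.47 and 8.01 with CMPF. The lowest CMPF array, at 7.37, lay just under the highest HFD array, at 7.38, and CMPF replicate 2 was again the highest. The CMPF value was 0.74 ± 0.256 (1.67-fold; adjusted p = 0.733), and that against chow was 0.81 ± 0.256 (adjusted p = 0.117). In prevention it read 7.03, 7.58 and 7.23 in chow, 7.14, 7.58 and 7.71 in HFD and 7.66, 7.85 and 7.82 with CMPF, a CMPF value of 0.27 ± 0.286 (adjusted p = 0.871).

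The counts over the 7 genes were small and are read against all genes tested. With HFD in prevention, 1 of 7 passed (14.3%), against 5.57% of all genes, and 2 of 7 (28.6%) did not overlap between the groups, against 29.2% of all genes. With HFD in reversal, 1 of 7 passed, against 2.45%, and 1 of 7 (14.3%) did not overlap, against 23.3%. For CMPF against vehicle in prevention 0 of 7 passed in limma, against 0% of all genes (1 of the 7 and 1060 of 13221 had an unadjusted p under 0.05), and 2 of 7 did not overlap, against 30.7%. For CMPF in reversal 0 passed, against 0.0378% (2 of the 7 and 634 of 13221 unadjusted), and 1 of 7, Rora, did not overlap, against 8.83%. For CMPF on HFD against chow, 0 of 7 passed in prevention, against 0% of all genes (0 of the 7 and 1321 of 13221 unadjusted), and 2 of 7 (28.6%) in reversal, against 2%. The HFD effect differed between the models for 1 of 7, against 11% of all genes, and the CMPF effect for 0 of 7, against 0% (0 of the 7 and 1048 of 13221 unadjusted). Median effects of the 7 were 0.19 and -0.07 for HFD in prevention and reversal, where the medians of all genes were 0.00 and 0.03, and 0.15 and 0.35 for CMPF, where they were 0.02 and -0.01. The counts over all genes rested on single arrays: HFD in prevention called 8 genes without chow 3 and 1624 without chow 2, and HFD in reversal called 99 without HFD 1 and 577 without chow 1, against 737 and 324 with every array. The difference of HFD effects called 0 genes without prevention chow 1, 35 without prevention chow 3 and 2400 without reversal chow 1, and 0 with the 3' to 5' index as a covariate, against 1453.

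**Figure D3:**
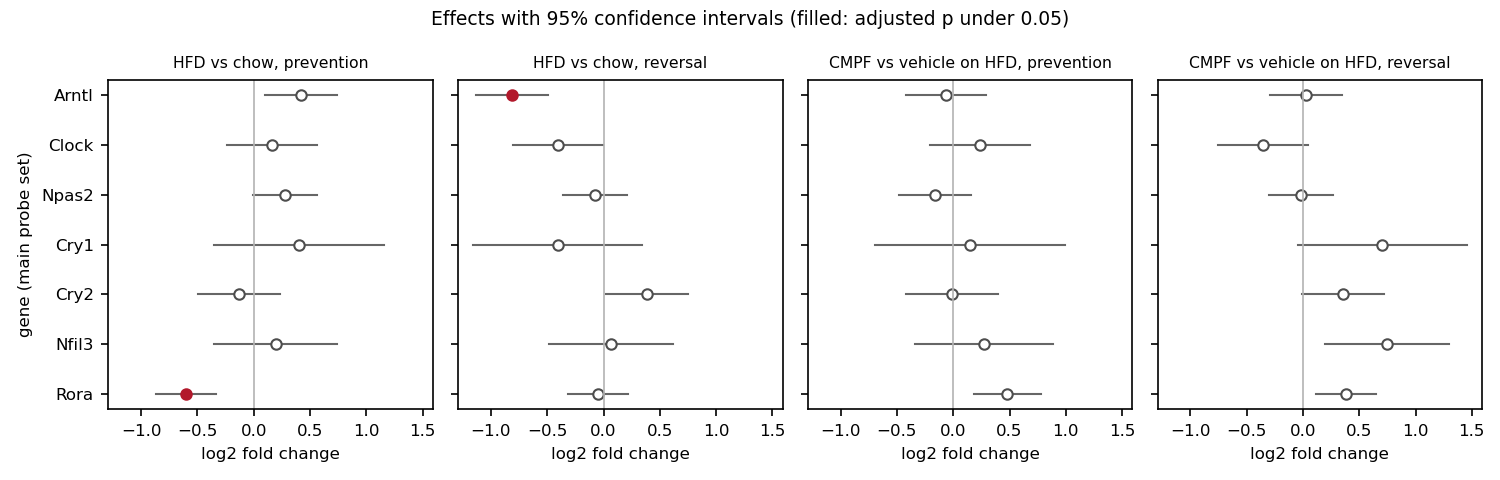
Log2 fold change with 95% confidence interval of the main probe set of each of the 7 genes in 4 comparisons; filled symbols passed limma over all genes. Rora in prevention HFD (-0.60) and Arntl in reversal HFD (-0.81) are the filled ones.

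The other genes of the clock gave the setting. Of 12 repressors and output genes, 11 were tested. With HFD in reversal 3 of these 11 rose and 0 fell, where 2.45% of all genes passed: Bhlhe40, a repressor of E-box genes (1.45 ± 0.213, adjusted p = 0.00569), Ciart, an inhibitor of CLOCK and ARNTL (1.04 ± 0.164, adjusted p = 0.00751), and Dbp (1.37 ± 0.313, adjusted p = 0.0373). Dbp read 10.44, 8.77 and 9.79 in chow and 11.04, 10.75 and 11.31 in HFD, the opposite order to Arntl. The value of 8.77 is that of chow 2, the array that stood apart, where Arntl was highest, at 6.16. The calls of these other clock genes were not followed without that array. With CMPF on HFD against chow in reversal 5 of 11 rose, where 2% of all genes passed, among them Ciart (1.90 ± 0.164), Bhlhe40 (1.85 ± 0.213), Nr1d2, which encodes REV-ERB beta (0.75 ± 0.114), and Per3 (1.06 ± 0.235), with adjusted p from 0.000164 to 0.0357. Ciart read 5.23, 5.38 and 5.44 in reversal chow, 6.54, 5.99 and 6.63 in HFD and 7.23, 7.07 and 7.44 with CMPF, 3 groups that did not overlap. With HFD in prevention Nr1d2 fell (-0.44 ± 0.114, adjusted p = 0.0401) and 0 of the 11 rose, where 5.57% of all genes passed. For CMPF against vehicle 0 of the 11 passed in either model by limma. In reversal the smallest p belonged to Ciart (0.86 ± 0.164, adjusted p = 0.112) and Nr1d2 (0.35 ± 0.114, adjusted p = 0.664).

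The HFD effect differed between the models for 4 of these 11 genes, where 11% of all genes differed, and all 4 effects were higher in reversal: Dbp by 2.28 ± 0.443, Bhlhe40 by 2.10 ± 0.301, Ciart by 1.18 ± 0.233 and Nr1d2 by 0.84 ± 0.162 (adjusted p from 0.0163 to 0.0183). Arntl differed by -1.23, in the opposite direction. Of 12 kinases, ligases and cofactors that act on clock proteins, 10 were tested and 0 passed for HFD or CMPF in either model. The HFD effect differed between the models for 1 of the 10, a share near the 11% of all genes: Csnk1d, a casein kinase that phosphorylates PER (-0.90 ± 0.258, adjusted p = 0.0415). Without prevention chow 1, or with the 3' to 5' index as a covariate, 0 genes passed for this difference. All calls of a difference between the models in these lists were thus lost there. Of 11 liver genes known to follow the clock, 10 were tested. With HFD in reversal 1 of the 10 rose, where 2.45% of all genes passed: Usp2, a deubiquitinase (0.97 ± 0.225, adjusted p = 0.0383). With CMPF on HFD against chow in reversal 4 of the 10 rose and 0 fell, where 2% of all genes passed. The 4 were Usp2 (2.12 ± 0.225), Upp2, a uridine phosphorylase (1.77 ± 0.272), Wee1, a cell cycle kinase (1.31 ± 0.259), and Nampt, which makes NAD (0.90 ± 0.162). Their adjusted p ran from 0.00042 to 0.0205. Of the 10 values, 8 lay above 0. For CMPF against vehicle 0 of the 10 passed in either model by limma. In reversal the smallest p belonged to Usp2 (1.15 ± 0.225, adjusted p = 0.112).

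Correlations across the 17 samples were computed after removing the mean of each model, for the 21 pairs of members and for each member with Dbp, Nr1d1 and Per3, 42 pairs in all. Arntl and Dbp ran in opposite directions, with Pearson r = -0.832 (permutation p = 0.0002, 0.0084 adjusted over 42 pairs) and Spearman rho = -0.743 (permutation p = 0.00168, adjusted 0.0359). The correlation was -0.637 within prevention (n = 8) and -0.892 within reversal (n = 9), and -0.673 without the 2 samples farthest from the median of Arntl. With each group's own mean removed it was -0.345, a value that was not tested. Samples were permuted within models but across groups, so the permutation p takes in differences between the groups. Cry2 and Per3 rose and fell together, with r = 0.839 (permutation p = 0.00053, adjusted 0.0111) and rho = 0.816 (permutation p = 0.00171, adjusted 0.0359). The correlation was 0.531 within prevention, 0.901 within reversal, 0.788 without the 2 farthest samples and 0.655 with group means removed.

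No pair of members passed the adjustment. Arntl and Npas2 had r = 0.511 (permutation p = 0.0206, adjusted 0.145) and rho = 0.522 (permutation p = 0.0229, adjusted 0.161), with 0.558 and 0.587 within the models. Arntl and Clock had r = 0.535 (permutation p = 0.0583, adjusted 0.22) and rho = 0.463 (permutation p = 0.0917, adjusted 0.227), but -0.251 with group means removed. Clock and Cry2 had r = -0.641 (permutation p = 0.0231, adjusted 0.145) and rho = -0.662 (permutation p = 0.014, adjusted 0.117). Cry1 and Nfil3 had r = 0.626 (permutation p = 0.0242, adjusted 0.145) and rho = 0.467 (permutation p = 0.0676, adjusted 0.203), and r fell to 0.372 without the 2 farthest samples. Rora and Dbp had r = 0.612 (permutation p = 0.00528, adjusted 0.0739), rho = 0.632 (permutation p = 0.00641, adjusted 0.0768), and an r of 0.73 with group means removed.

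**Figure D4:**
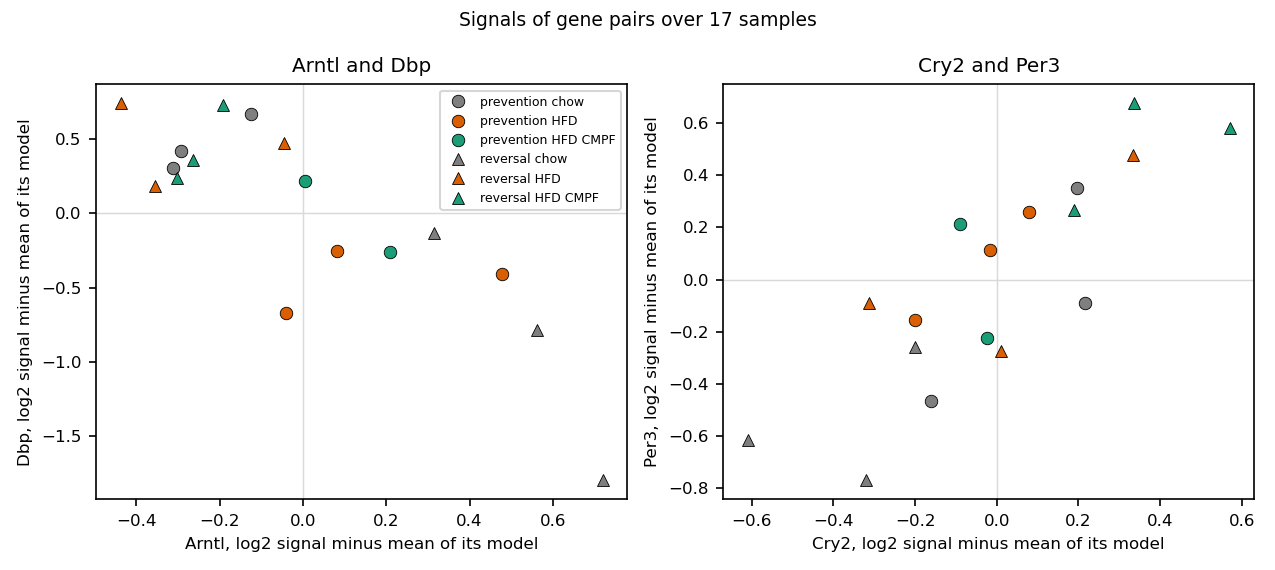
Log2 signal of Arntl against Dbp (left) and of Cry2 against Per3 (right) in the 17 samples, each minus the mean of its model; circles are prevention, triangles reversal, and colours the groups. Arntl and Dbp slope down (r = -0.832), with the reversal chow samples at the lower right, and Cry2 and Per3 slope up (r = 0.839).

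The genes most like a member were listed by Pearson r over the same 17 model-centred samples, which share chips, diets and RNA quality. The highest for Arntl were Chkb, a choline kinase (0.856), Zfp236 (0.852), Gimap8 (0.848), Dock6 (0.847) and Dnal1 (0.838). The lowest were C4bp, a complement inhibitor (-0.878), Cfi, complement factor I (-0.847), and Rpn2, a subunit of the oligosaccharyltransferase (-0.846). For the main Npas2 probe set the highest were Lrrc19 (0.82), Anxa9 (0.811), Nup210l (0.798), Pitpnm3 (0.795) and Hdhd5 (0.78), and the lowest Dolk (-0.804), Galnt4 (-0.785) and Kbtbd13 (-0.783). For Cry1 the highest were Fam117b (0.821, and 0.438 without the 2 farthest samples), Tmem204 (0.812), Zfp451 (0.771), Caln1 (0.755) and Asb9 (0.75), and the lowest Mad2l2 (-0.853), Stamos (-0.845) and Coa7 (-0.806). These were picked from 13221 genes as extremes and carry no test, and none of them is on the clock lists used here.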

How the data were processed

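Per the labels' protocols, 200 ng of column-purified liver RNA was turned into biotin-labelled cRNA. The deposited values are log2 signals, which the authors made with Affymetrix Expression Console 1.1 and RMA, per the submitters' processing notes; which arrays were normalised together is not given in the sources used here. Of 45101 probe sets, 64 were controls, 34945 had 1 gene symbol, 932 several and 9160 none; the 40% with the lowest mean were left out, and the brightest probe set stood for its gene. Groups were compared with limma 3.58.1 (R 4.3.3), as 1 model of 6 group means over 17 samples with 11 residual degrees of freedom, adjusted over 13221 genes. A second fit tested all probe sets without the filter. Correlations used 100000 permutations within models. The AGTAGGTNA search was added after the other motifs had been searched. The pipeline was tested on simulated data. The members and gene lists were chosen with earlier results of these data known. Named genes were all members, up to 4 genes of each other clock list that passed in a comparison (the 2 with the smallest p where none did), and the 5 most and 3 least alike of Arntl, Npas2 and Cry1. The labels do not say that the arrays of a group are separate animals, so p measures spread between arrays, and their number limits the precision. Alternatives were other filters, normalisations, summaries, samples and covariates.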

Additional observations from a re-analysis of the deposited data

Results flagged for a closer look

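The HFD effect on Arntl differed between the models by a test of the difference itself: it was -1.23 ± 0.211 (reversal minus prevention, adjusted p = 0.0173 by limma), from 0.42 in prevention, where all 3 HFD arrays lay above the chow arrays, and -0.81 in reversal, where all 3 lay below. The adjusted p ranged from 0.008 to 0.152 over 24 alternatives, and the value from -1.35 to -0.78. Of all genes, 11% (1453) differed in this comparison, a count that was 0 without prevention chow 1 or with the 3' to 5' index as a covariate, 35 without prevention chow 3 and 2400 without reversal chow 1.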

How the results depend on the processing

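The 56 effects of the 7 genes had 1426 values over up to 26 alternatives: 1355 kept their direction and side of the threshold, 29 were no longer past it, 12 came past it and 30 changed sign, none of these a called value. The causes of the changes were not tested, except where fewer genes or samples were used.

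Counting all 18 arrays gave 36 genes for CMPF and 6 for CMPF against chow in prevention, and 2 members for the difference of HFD effects. With the replicate number as a block on all 18 arrays, HFD in prevention called 1112 genes and CMPF 9 in prevention and 12 in reversal. CMPF against chow in prevention then called 25 genes, and the difference of HFD effects 2 members. Of 45 pairs of arrays with the same number, 14 correlated above 0.1 after group means were removed (median -0.0549). Pairs with different numbers were not set beside them, so whether the numbers pair the samples stays unknown. Dropping the 60% dimmest probe sets left Arntl untested, so 0 members passed for HFD in reversal and for the difference of HFD effects. Quantile normalisation over all arrays called 1 gene for CMPF in prevention and 3 in reversal. It put Npas2 at 0.021 and Nfil3 at -0.042 for HFD in reversal, and Rora at 0.015 for the difference of CMPF effects. Averaging the probe sets of each gene gave 0 members for HFD in prevention, 0 genes for CMPF in reversal and 2 members for the difference of HFD effects, with Rora at 0.013 for HFD and Arntl at -0.00598 for CMPF in reversal. With the 3' to 5' index as a covariate, HFD in prevention called 17 genes and 0 members, CMPF in reversal 17 genes, and the difference of HFD effects 0 genes and 0 members. Clock was then at -0.057 and Nfil3 at -0.13 for HFD in prevention, Rora at 0.086 for CMPF against chow in prevention, and Nfil3 at 0.31 for the difference of HFD effects. Fitting each model alone called 1151 genes for HFD in prevention, 38 genes and 0 members for HFD in reversal, 0 genes for CMPF in reversal, and 59 genes and 0 members for CMPF against chow in reversal.

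Leaving out 1 sample at a time gave 8 to 1624 genes and 0 to 1 members for HFD in prevention, 99 to 577 genes and 0 to 1 members for HFD in reversal, 0 to 1 genes for CMPF and for CMPF against chow in prevention, and 0 to 10 genes for CMPF in reversal. It gave 73 to 267 genes and 0 to 3 members for CMPF against chow in reversal, and 0 to 2400 genes and 0 to 2 members for the difference of HFD effects. Some effects changed sign. For HFD in reversal Npas2 ran from -0.16 to 0.016, Nfil3 from -0.10 to 0.22 and Rora from -0.17 to 0.061. For CMPF in prevention Arntl ran from -0.17 to 0.085, Cry1 from -0.047 to 0.38 and Cry2 from -0.088 to 0.052; in reversal Arntl ran from -0.052 to 0.14 and Npas2 from -0.062 to 0.071. Cry1 ran from -0.21 to 0.62 for CMPF against chow in reversal. It was 0.30 with every sample and turned negative only without CMPF 2. Nfil3 ran from -0.30 to 0.023 for the difference of HFD effects, and Arntl from -0.058 to 0.21 for that of CMPF effects. Leaving out the averaged prevention CMPF sample put Arntl at 0.035 and Cry2 at 0.021 for CMPF in prevention, and Arntl at -0.0077 for the difference of CMPF effects. Signals near the lower end, as for Npas2, and 2 or 3 samples a group limit what could be detected.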
